A study of Mus musculus with 12 samples.

Results

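Loss of Lyl1 was examined in thymocytes sorted as double-negative, early precursors with neither CD4 nor CD8 on their surface, from mice with a CD2-Lmo2 transgene. The comparison sets 3 arrays of cells that carried the transgene and lacked Lyl1 (Lmo2 Lyl1-knockout arrays) against 3 arrays of cells that carried the transgene alone (Lmo2 arrays), chosen by their sample titles. These are 6 of the 12 arrays of the series, and the other 6 are wild-type arrays, which are given as levels beside the 2 transgenic groups. All mice were C57BL/6 and 2 months old, the tissue was thymus, and total RNA of sorted cells was read on Illumina MouseWG-6 v2.0 BeadChips, 1 sample per array in 1 colour. The labels spell the transgene LMO2 in the group with the transgene alone and Lmo2 in the knockout group, do not say from which species it comes, and do not describe the knockout allele. CD2 names the lymphocyte gene whose regulatory sequences are used to drive transgenes in T-lineage cells, and since both groups carry the transgene, neither is a model of Lyl1 loss in cells without it. Whether the arrays of a group came from separate mice is not stated in the labels. The p-values therefore measure only the spread between these samples, some of which may be technical.

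Lyl1 belongs to the basic helix-loop-helix transcription factors, pairs with E proteins and binds short DNA motifs called E-boxes. Lmo2 is a LIM-only protein that does not bind DNA itself and bridges such pairs to GATA factors through the adaptor Ldb1, in a complex known from blood stem and progenitor cells. T-cell precursors normally silence these progenitor genes as they commit to the T lineage, switch on the pre-T-cell receptor and recombine their receptor genes. The series title names an Lmo2-driven model of early T-cell precursor leukaemia, and the comparison asks which genes of transgenic thymocytes differ when Lyl1 is removed.

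The promoters of 4 genes that the results turn on are shown as context: Hhex and Kit, progenitor genes that were lower without Lyl1, and Hoxa7 and Hoxa5, homeobox genes of the Hoxa cluster that were higher. Each is the 250 bases before the annotated gene start in RefSeq (GRCm38.p6), 5′ to 3′ on the strand of the gene, with E-boxes (CANNTG, which reads the same way on both strands) and GATA motifs (AGATAA, searched on both strands) in capitals. The windows are chr19:37434591-37434840 (plus strand) for Hhex, chr5:75574737-75574986 (plus) for Kit, chr6:52218574-52218823 (minus) for Hoxa7 and chr6:52204588-52204837 (minus) for Hoxa5.
Hhex: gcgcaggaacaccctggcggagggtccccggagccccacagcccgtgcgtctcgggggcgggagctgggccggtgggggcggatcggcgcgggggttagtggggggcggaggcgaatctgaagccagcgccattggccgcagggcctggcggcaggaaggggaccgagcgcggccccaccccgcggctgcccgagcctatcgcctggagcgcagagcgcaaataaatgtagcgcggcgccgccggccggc
Kit: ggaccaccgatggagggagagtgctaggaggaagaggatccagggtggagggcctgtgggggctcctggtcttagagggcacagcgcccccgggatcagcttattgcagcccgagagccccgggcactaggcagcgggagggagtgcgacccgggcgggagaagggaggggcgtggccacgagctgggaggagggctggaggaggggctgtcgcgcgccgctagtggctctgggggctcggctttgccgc
Hoxa7: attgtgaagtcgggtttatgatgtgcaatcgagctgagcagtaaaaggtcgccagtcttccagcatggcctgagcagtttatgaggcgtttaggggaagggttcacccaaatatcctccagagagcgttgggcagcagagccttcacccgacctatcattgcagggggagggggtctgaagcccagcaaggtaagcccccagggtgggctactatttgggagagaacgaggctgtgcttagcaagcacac
Hoxa5: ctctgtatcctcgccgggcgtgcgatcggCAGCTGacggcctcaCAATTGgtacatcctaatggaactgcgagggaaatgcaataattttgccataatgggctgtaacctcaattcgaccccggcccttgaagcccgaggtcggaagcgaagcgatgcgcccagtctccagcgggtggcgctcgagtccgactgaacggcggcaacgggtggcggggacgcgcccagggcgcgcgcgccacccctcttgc
The Hoxa5 window holds 2 E-boxes, and neither motif occurs in the other 3 windows. Over all tested genes with a promoter in the table, an E-box occurred in 62.5% of 622 windows of genes that were lower, 62.5% of 504 windows of genes that were higher and 58.0% of all 10947 windows. AGATAA occurred in 6.91%, 7.14% and 6.03% of the same sets. These are matches of letters and say nothing of binding.

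The targeted gene was read first. Lyl1 read 4.81, 5.03 and 4.91 on the log2 intensity scale on the 3 knockout arrays and 9.80, 9.97 and 11.39 on the 3 Lmo2 arrays, against a lowest, median and highest value of 6.60, 7.06 and 7.17 on the wild-type arrays. The knockout values were not above background, with detection p-values of 0.249, 0.0769 and 0.141. The decrease was at least 36.9-fold (limma, adjusted p = 1.37e-06), where "at least" means that the brighter group was set against a background level in the dimmer one, as in all such bounds given here. The 1 Lmo2 probe read 7.55, 8.74 and 7.68 on knockout arrays and 7.27, 5.72 and 6.56 on Lmo2 arrays (1.47 ± 0.55 SE, limma, adjusted p = 0.122). On wild-type arrays with a plain column name it read 8.23, 8.28 and 8.48. On those whose column name adds NHD13 it read 7.08, 6.87 and 6.71. The median of all wild-type arrays, 7.66, lay between these sets. All 3 Lmo2 arrays lay below the plainly named arrays. Of them, replicate 1 lay above the NHD13-named arrays and replicates 2 and 3 below. Against all 6 wild-type arrays neither transgenic group passed on this probe (limma, knockout 0.39, adjusted p = 0.741, and Lmo2 -1.09, adjusted p = 0.165). The spread in that fit includes the gap between the wild-type sets. No source says whether the probe reads the transgene, whose level is therefore unchecked.

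Between 37.9% and 43.0% of probes were detected per array. Pearson correlations across probes within a group were 0.980 to 0.987 for knockout arrays, 0.921 to 0.963 for Lmo2 arrays and 0.947 to 0.992 for wild-type arrays, with Lmo2 replicate 3 the farthest from its group (mean r of 0.921). Cd3e, a chain of the T-cell receptor complex, lay between 13.20 and 13.39 on the 6 transgenic arrays, and Cd4 lay between 5.10 and 5.59. Cd8b1, a chain of the CD8 co-receptor, lay between 12.29 and 12.33 on knockout arrays, 9.61 and 10.84 on Lmo2 arrays and 12.18 and 12.98 on wild-type arrays although the sort took CD8-negative cells. Y-linked Eif2s3y read 10.11 and 10.53 on knockout replicates 2 and 3 and 10.24 on Lmo2 replicate 2, against 4.64 on knockout replicate 1 and 4.42 and 4.57 on Lmo2 replicates 1 and 3, so both groups hold arrays with and without this signal.

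Of 10526 genes tested, 1084 (10.3%) changed between knockout and Lmo2 arrays at an adjusted p under 0.05, with 501 higher (4.76%) and 583 lower (5.54%) in the knockout. At least 2-fold changes were measured for 340 higher and 363 lower genes. In 1076 of the 1084 the 3 knockout values all lay on 1 side of the 3 Lmo2 values, a separation seen in 27.2% of all tested genes. The median difference over all tested genes was 0.0047 on the log2 scale. In what follows a list is described over its measured members, those that passed the filter on dim probes, and its counts stand beside these shares of 4.76% and 5.54%. Against wild-type arrays, 109 genes (1.04%) changed in the knockout, 67 higher (0.637%) and 42 lower (0.399%). In the Lmo2 group 1324 (12.6%) changed, 701 higher (6.66%) and 623 lower (5.92%), counts that share arrays with each other and with the main comparison.

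**Figure D1:**
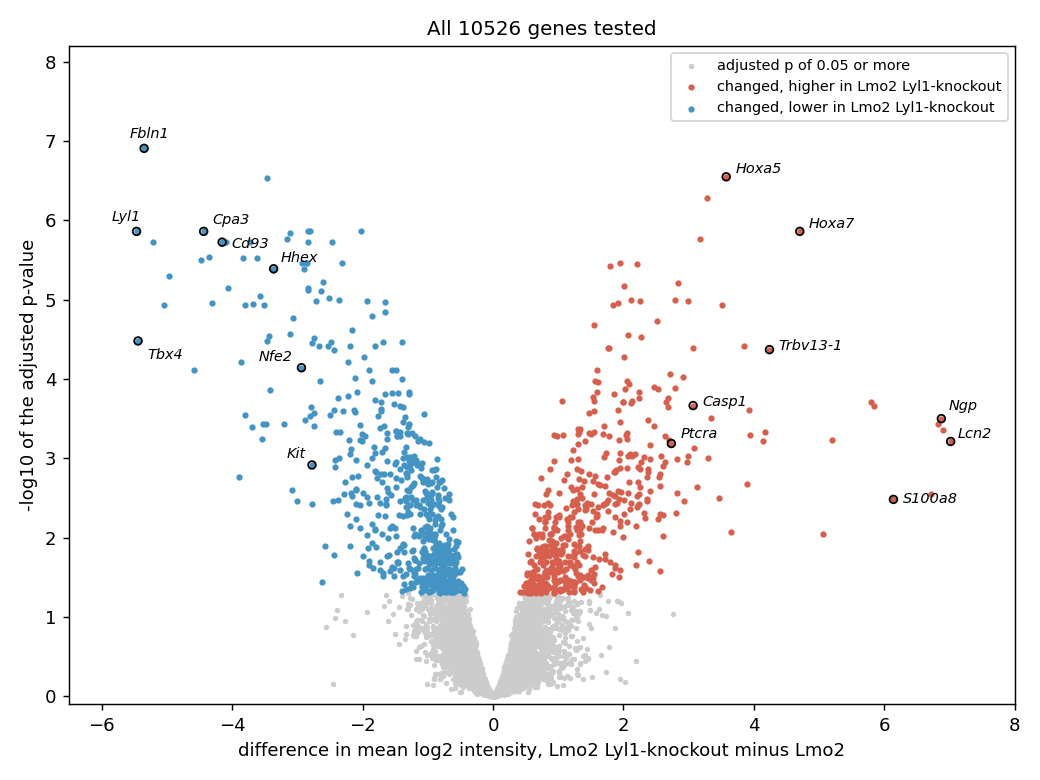
Each point is 1 of the 10526 tested genes. The x axis is the difference in mean log2 intensity, Lmo2 Lyl1-knockout minus Lmo2, and the y axis is -log10 of the adjusted p-value (limma). Fbln1 and Hoxa5 lie highest, and the neutrophil gene Lcn2 lies farthest right.

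Several genes of stem and early progenitor cells fell, while 2 genes of the Hoxa cluster rose. Of 19 measured members of this list (30 listed), 7 fell and 2 rose, against 5.54% lower and 4.76% higher over all genes, and the median difference was -0.14. Hhex, a homeobox gene active in blood progenitors, read 8.03, 8.65 and 7.95 on knockout arrays and 11.30, 11.55 and 11.87 on Lmo2 arrays, against 7.69 to 8.55 (median 8.03) on wild-type arrays. It fell by 3.36 ± 0.25 (SE; adjusted p = 4.07e-06), and every knockout value lay within or just above the wild-type range. Cd93, a C-type lectin-like surface protein, read 7.94, 8.35 and 7.86 on knockout arrays and 12.72, 11.69 and 12.19 on Lmo2 arrays, against 8.79 to 9.71 (median 9.08) in wild-type. The difference was -4.15 ± 0.28 (adjusted p = 1.88e-06), with -3.77 on a second probe, and all 3 knockout values lay below all wild-type values. In bulk samples such as these, fewer cells of a type and less RNA per cell cannot be told apart.

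Kit, the receptor for stem cell factor, read 8.80, 9.15 and 8.92 on knockout arrays and 11.76, 10.61 and 12.83 on Lmo2 arrays, against 9.51 to 10.43 (median 10.19) in wild-type. The decrease was -2.78 ± 0.44 (adjusted p = 0.00121), on 1 of its 2 measured probes, with -1.24 and no call on the other. Nfe2, a leucine-zipper factor of erythroid and megakaryocyte cells, read 8.67, 9.90 and 9.62 on knockout arrays and 12.32, 11.84 and 12.85 on Lmo2 arrays, and the groups did not overlap (-2.94 ± 0.31; adjusted p = 7.20e-05). The knockout values of Nfe2 spanned the wild-type range of 8.91 to 9.55. Igf2bp3, an RNA-binding protein of fetal cells, differed by -3.48 ± 0.46 (adjusted p = 0.000371). Its other measured probes gave -4.05, -3.08 and -1.93 with calls, and -0.31 without one. Angpt1, a ligand of the Tie2 receptor, differed by -2.77 ± 0.52 (0.00382) and Slamf1, a surface receptor of the SLAM family, by -1.42 ± 0.19 (0.000472).

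Hoxa7 and Hoxa5, homeobox genes expressed in early progenitors, went the other way. Hoxa7 read 9.46, 9.59 and 9.66 on knockout arrays and 4.94, 4.99 and 4.66 on Lmo2 arrays, where it was not above background, against 8.10 to 9.50 (median 8.60) in wild-type. It was at least 19.6-fold higher in the knockout (adjusted p = 1.37e-06). Hoxa5 read 8.07, 8.14 and 8.09 on knockout arrays and 4.45, 4.45 and 4.67 on Lmo2 arrays, again not above background, against 6.74 to 7.34 (median 6.95) in wild-type. The difference was at least 7.10-fold (2.82e-07), and the knockout values of Hoxa5 also lay above all wild-type values (1.09; adjusted p = 0.0034 against wild-type, and 0.0591 against wild-type replicates 1 to 3 alone). Other progenitor factors did not pass the test: Bcl11a differed by 1.48 ± 0.49 (0.082), Mef2c by 1.09 ± 0.59 (0.310), Spi1 by 0.67 ± 0.29 (0.181) and Meis1 by 0.35 ± 0.23 (0.440). Spi1 was above background on 2 knockout arrays and Meis1 on 1, and neither was on any Lmo2 array, so both differences lie near background. Without Lmo2 replicate 1, Bcl11a passed (1.99; adjusted p = 0.0179).

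**Figure D2:**
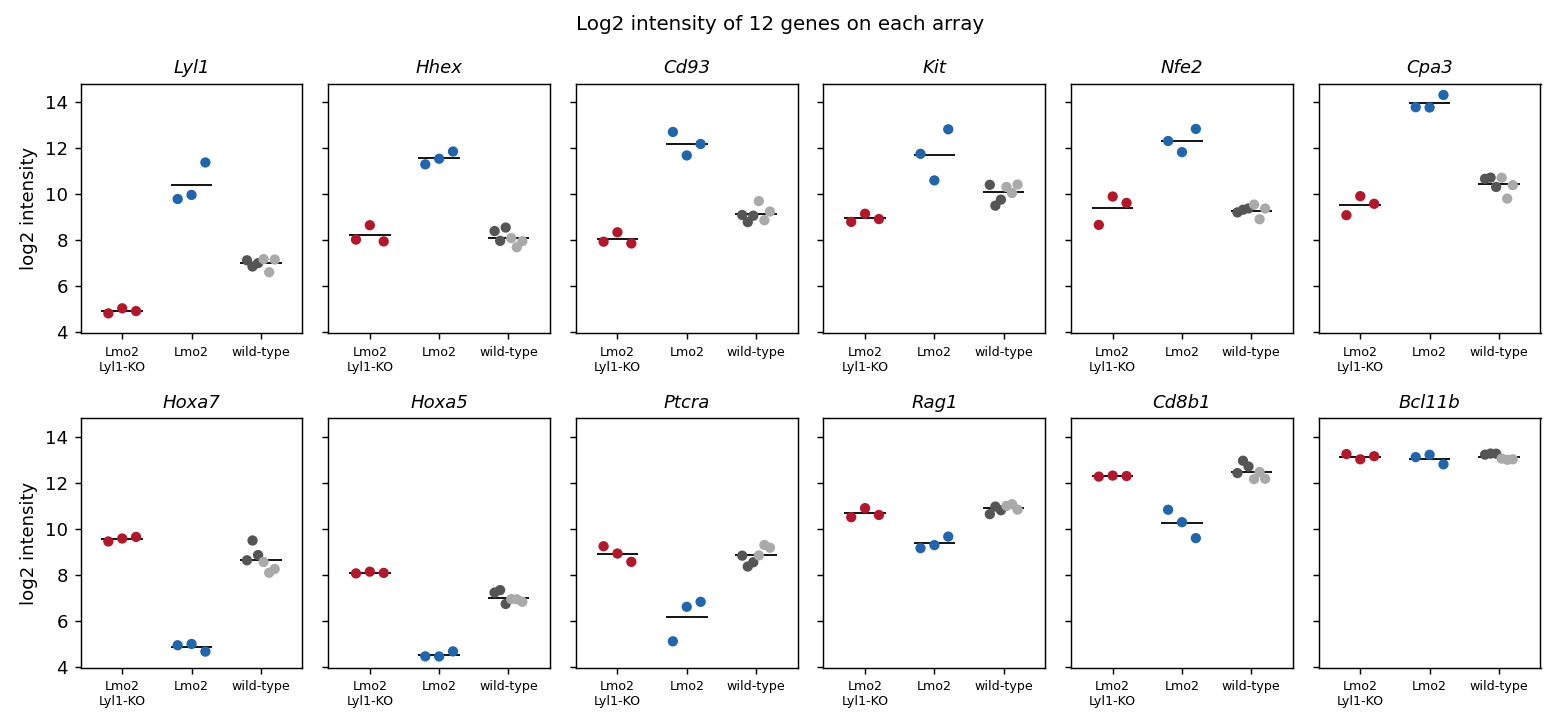
Log2 intensity of 12 genes on each array, with Lmo2 Lyl1-knockout arrays in red, Lmo2 arrays in blue and wild-type arrays in grey (light grey where the column name adds NHD13). Points are arrays and bars are group means. In the first 6 panels the Lmo2 arrays lie above both other groups, in the next 5 they lie below both, and Bcl11b lies between 12.82 and 13.29 throughout.

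Of 15 measured members of the complex list, 2 fell, Lyl1 itself and Cbfa2t3, and none rose (limma; 3 higher and 5 lower at an unadjusted p under 0.05), with a median of -0.37, and 1 rose without Lmo2 replicate 2 or 3. Cbfa2t3, a corepressor of the ETO family that joins such complexes, read 9.96, 9.80 and 9.70 on knockout arrays and 10.96, 10.42 and 10.91 on Lmo2 arrays (-0.94 ± 0.17; adjusted p = 0.00263), a call lost when arrays were scaled to a common median (-0.91; 0.116). The adaptor Ldb1 gave 0.09 ± 0.19 (0.853), the E-protein genes Tcf12 -0.54 ± 0.21 (0.134), Tcf3 -0.11 ± 0.57 (0.941) and Tcf4 0.44 ± 0.25 (0.348), and Runx1, a core factor of blood progenitors, -0.64 ± 0.43 (0.432).

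Among the named genes, the largest decrease after Lyl1 was in Tbx4, a transcription factor of the T-box family. It read 4.49, 5.15 and 4.75 on knockout arrays and 11.39, 10.79 and 8.54 on Lmo2 arrays (-5.44 ± 0.53; adjusted p = 3.31e-05). Fbln1, an extracellular matrix protein, read 5.08, 5.30 and 5.02 on knockout arrays and 10.18, 10.94 and 10.33 on Lmo2 arrays (-5.35 ± 0.22; 1.23e-07), and all 4 of its measured probes fell. Cpa3, a carboxypeptidase of mast cells and their progenitors, read 9.09, 9.92 and 9.59 on knockout arrays and 13.79, 13.78 and 14.33 on Lmo2 arrays (-4.44 ± 0.28; 1.37e-06). Tbx4 and Fbln1 thus lay close to background in the knockout, while Cpa3 stayed well above it. On wild-type arrays Tbx4 lay between 4.49 and 5.03, Fbln1 between 5.97 and 6.60 and Cpa3 between 9.81 and 10.73. Each of these genes was higher on every Lmo2 array than on any wild-type array.

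Olfm5, an olfactomedin-family gene, was at least 24.8-fold lower and Lmcd1, a LIM and cysteine-rich domain protein, at least 16.2-fold lower, both above background on no knockout array. Further members of the 12 largest decreases were Rpl3l, a ribosomal protein paralog of muscle (-5.21 ± 0.34), Acox2, a peroxisomal oxidase (-4.96 ± 0.38), Lcn4, a lipocalin (-4.58 ± 0.49), Gpr34, a receptor for lysophosphatidylserine (-4.48 ± 0.32), and Myh10, a non-muscle myosin (-4.30 ± 0.37). For these 7 genes the adjusted p lay between 1.88e-06 and 7.63e-05. Erythroid, megakaryocyte and mast-cell markers held 4 lower genes and 1 higher among 9 measured (median -1.05). Beside Cpa3 and Nfe2, Gp9, a platelet glycoprotein, was at least 1.73-fold lower (adjusted p = 0.00382) and Slc14a1, a urea transporter, differed by -1.05 ± 0.27 (0.0247), a call lost without any 1 knockout array or without Lmo2 replicate 1 or 3 and not made by its other probes (-1.18 and -0.89). The higher one was Hdc, the histidine decarboxylase of mast cells and granulocytes (2.61 ± 0.51; 0.00516), which was lowest on knockout replicate 1 like the neutrophil genes described further on.

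Genes of the pre-T-cell receptor and of receptor recombination were among the increases. Of 10 measured members of this list, 4 rose and 1 fell (median 0.20), and 2 fell without Lmo2 replicate 1. Ptcra, which encodes pre-T alpha, read 9.25, 8.93 and 8.57 on knockout arrays and 5.11, 6.61 and 6.83 on Lmo2 arrays, against 8.37 to 9.31 (median 8.85) in wild-type (2.73 ± 0.39; adjusted p = 0.00065). Rag1, which cuts receptor genes for recombination, read 10.52, 10.91 and 10.61 on knockout arrays and 9.17, 9.30 and 9.67 on Lmo2 arrays, against 10.65 to 11.09 in wild-type (1.30 ± 0.18; 0.000424). Both groups were separate for both genes, and the knockout values lay in or next to the wild-type range.

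Trbv13-1, a variable segment of the T-cell receptor beta chain, read 11.01, 10.97 and 11.23 on knockout arrays and 7.65, 5.76 and 7.08 on Lmo2 arrays (4.24 ± 0.43; adjusted p = 4.26e-05). Cd8b1 read 12.29, 12.33 and 12.31 on knockout arrays and 10.84, 10.30 and 9.61 on Lmo2 arrays (2.06 ± 0.28; 0.000477), with 2.31 on a second probe and -0.58, no call, on another. The 1 decrease was Dntt, the terminal transferase that adds bases at receptor joints, which read 11.46, 11.12 and 11.42 on knockout arrays and 12.36, 12.36 and 12.63 on Lmo2 arrays (-1.11 ± 0.16; 0.000574). Dntt was thus lower than in wild-type as well, where it lay between 11.91 and 12.37 (-0.78 and adjusted p = 0.013 against wild-type). Rag2, the partner of Rag1, was above background on 1 knockout and no Lmo2 array (0.32 ± 0.24; 0.496).

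Most other T-lineage genes did not pass the test. Of 16 measured CD3 chains and T-cell receptor signalling genes 1 rose, the costimulatory receptor gene Cd28, at 11.08, 10.76 and 10.80 on knockout arrays and 9.25, 8.89 and 7.38 on Lmo2 arrays (2.37 ± 0.44; adjusted p = 0.00341), and none fell (limma; 3 lower at an unadjusted p under 0.05). Cd3e gave -0.06 ± 0.12 (0.825). Of 12 T-lineage commitment factors 1 rose and 2 fell (median -0.21). Id3, an inhibitor of E proteins, rose by 1.41 ± 0.27 (0.00393), whereas Zeb1 (-0.54 ± 0.13) and Gfi1 (-0.53 ± 0.14), both zinc-finger repressors, lost their calls without any 1 of the 3 knockout arrays, and Zeb1 also without Lmo2 replicate 3 or on its second probe (-0.61), and Gfi1 without Lmo2 replicate 1 or 2. The number that rose was 2 without Lmo2 replicate 1 or 3. Bcl11b, which fixes T-cell identity, gave 0.10 ± 0.15 (0.782), Gata3, a T-lineage zinc-finger factor, -0.78 ± 0.24 (0.0557), and Lef1, a factor of Wnt signalling, 0.36 ± 0.34 (0.621). Gata3 passed without Lmo2 replicate 1 (-0.91; 0.0467) or 2 (-0.91; 0.045), and Lef1 without Lmo2 replicate 1 (0.86; 0.0269).

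Of 10 measured Notch receptors and targets, Ptcra alone rose and none fell (limma; 2 higher and 2 lower at an unadjusted p under 0.05; median -0.04). Notch1, the receptor that directs T-cell fate, gave -0.19 ± 0.19 (adjusted p = 0.634), and its targets gave -0.65 ± 0.28 for Hes1 (0.180), 0.33 ± 0.36 for Dtx1 (0.667), -0.37 ± 0.26 for Il2ra (0.476) and 0.11 ± 0.29 for Myc (0.886). In the list of IL-7, KIT and STAT5 signalling, 2 of 13 fell and 1 rose (3 without Lmo2 replicate 1; median 0.32). Stat5a, the transcription factor of this pathway, read 9.79, 9.34 and 9.20 on knockout arrays and 11.05, 11.29 and 11.41 on Lmo2 arrays (-1.81 ± 0.22; adjusted p = 0.000185). Cish, a feedback inhibitor that STAT5 induces, read 9.88, 9.84 and 10.42 on knockout arrays and 8.33, 6.94 and 8.35 on Lmo2 arrays (2.17 ± 0.32; 0.000873). The factor and its feedback inhibitor therefore differed in opposite directions, and Il7r, the receptor chain for IL-7, gave -0.44 ± 0.24 (0.314).

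At an adjusted p under 0.05, calls among G1/S and G2/M genes were no more frequent than among all genes (4.76% higher). At an unadjusted p under 0.05 (limma), 7 of 21 measured G1/S genes were higher and 0 lower. Over all 10526 genes, 1165 were higher and 1222 lower at that threshold. Of 21 measured G1/S and replication genes 1 rose, the replication factor gene Mcm10 (0.61 ± 0.17; adjusted p = 0.0419), which lost its call without any 1 of the 3 knockout arrays or without Lmo2 replicate 1 or 3, and 6 rose without Lmo2 replicate 2. None of the 16 G2/M and mitosis genes passed (limma; 2 higher at an unadjusted p under 0.05), and 3 rose without Lmo2 replicate 2. The medians of these lists were 0.35 and 0.29, above the 0.0047 of all genes, and all 16 measured G2/M genes lay above 0 (lowest 0.014). Of 15 inhibitors and quiescence genes 3 fell and 1 rose (3 without knockout replicate 1; median -0.27). Cdkn1a, the inhibitor p21, read 7.87, 7.77 and 7.99 on knockout arrays and 6.66, 5.54 and 5.15 on Lmo2 arrays (2.09 ± 0.35; adjusted p = 0.002), with 1.02 and 0.31 and no call on its other probes.

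Cdkn2a, which encodes the tumour suppressors p16 and p19Arf, was above background on all 3 Lmo2 arrays and no knockout array, and was at least 2.12-fold lower in the knockout (adjusted p = 0.000819). Foxo3, a forkhead factor of quiescent cells, differed by -1.43 ± 0.20 (0.000517). Among 14 measured BCL-2 family genes 2 rose and 1 fell (median 0.62). The survival genes Bcl2a1b (1.94 ± 0.29; 0.000855) and Bcl2a1d (1.86 ± 0.35; 0.00381) are near-identical copies whose probes may not tell them apart. Bbc3, which encodes the pro-apoptotic protein PUMA, read 7.55, 7.34 and 7.67 on knockout arrays and 9.15, 8.31 and 8.96 on Lmo2 arrays (-1.29 ± 0.23; 0.00255), with -0.38 and -0.41 and no call on its other probes. Bcl2 gave 0.59 ± 0.45 (0.511).

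Neutrophil markers rose together and made up most of the largest increases. Of 25 measured neutrophil markers (35 listed), 20 rose and 1 fell, and 7 of the 25 were above background on no Lmo2 array. A marker seen only on the 3 knockout arrays, such as Cxcr2, passes the filter on dim probes through the group where it is high. Such a marker could hardly be called lower, and the same holds for all genes tested. The share that rose stands against 4.76% over all genes, and the median difference was 3.65. Lcn2, an iron-binding granule protein, read 10.80, 12.63 and 12.96 on knockout arrays and 4.61, 5.86 and 4.86 on Lmo2 arrays, against 5.04 to 9.37 (median 6.58) in wild-type (7.02 ± 1.00; adjusted p = 0.000612). Ngp, a granule protein of developing neutrophils, read 10.61, 12.79 and 12.69 on knockout arrays and 4.74, 5.30 and 5.42 on Lmo2 arrays (6.88 ± 0.89; 0.000316). S100a8, a calcium-binding protein abundant in neutrophils, read 13.69, 14.04 and 14.39 on knockout arrays and 6.68, 9.86 and 7.16 on Lmo2 arrays, against 7.78 to 12.79 (median 10.46) in wild-type (6.14 ± 1.12; 0.00329). The knockout arrays thus lay above every Lmo2 and every wild-type array for all 3 genes, and Lmo2 replicate 2 was the highest of its group for S100a8.

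Further granule genes among the 12 largest increases were Ltf (6.89 ± 0.93), Camp (6.83 ± 0.90) and S100a9 (6.72 ± 1.19), with adjusted p-values of 0.000372 to 0.00281. The secreted chitinase-like proteins Chil4, which is not on the list, and Chil3, which is, rose at least 36.7-fold (Chil4; 0.000216) and at least 37.7-fold (Chil3; 0.000197). So did Fpr2, a receptor for formylated peptides (at least 25.2-fold; 0.000582), and Retnlg, a resistin-like protein (5.06 ± 1.08; 0.00893). Chil3 and Chil4 are close paralogs whose probes may not tell them apart. Cxcr2, the receptor that draws neutrophils to tissue, was above background on the 3 knockout arrays and on no Lmo2 or wild-type array, and was at least 3.52-fold higher (0.00284). The 1 decrease was Clec4e, a lectin receptor of neutrophils and macrophages, which read 5.12, 5.85 and 5.31 on knockout arrays and 8.41, 8.67 and 9.83 on Lmo2 arrays (-3.55 ± 0.50; 0.000565).

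The increase was uneven within the knockout group. Over the 25 markers the mean log2 level was 7.82, 9.74 and 9.65 on knockout replicates 1 to 3 and 5.29, 5.96 and 5.54 on Lmo2 replicates 1 to 3. Mpo, the myeloperoxidase of granulocyte precursors, read 6.40 on knockout replicate 1 and 10.41 and 9.75 on the other 2 (3.65 ± 0.77; adjusted p = 0.00845). Of the 501 genes that rose, 48 (9.58%) were lowest on knockout replicate 1 by at least 1 on the log2 scale, against 1.02% of all tested genes, and these 48 included 18 of the 20 neutrophil markers that rose. When any 1 transgenic array was left out, 19 to 21 neutrophil markers rose, and 2 fell without knockout replicate 3 or Lmo2 replicate 2. Wild-type arrays differed too, with means of 5.37 to 5.85 where the column name gives a plain wild-type label and 6.36 to 7.39 where it adds NHD13, a word that no label explains. Whether neutrophils in the sorted cells contributed to other differences was not tested.

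**Figure D3:**
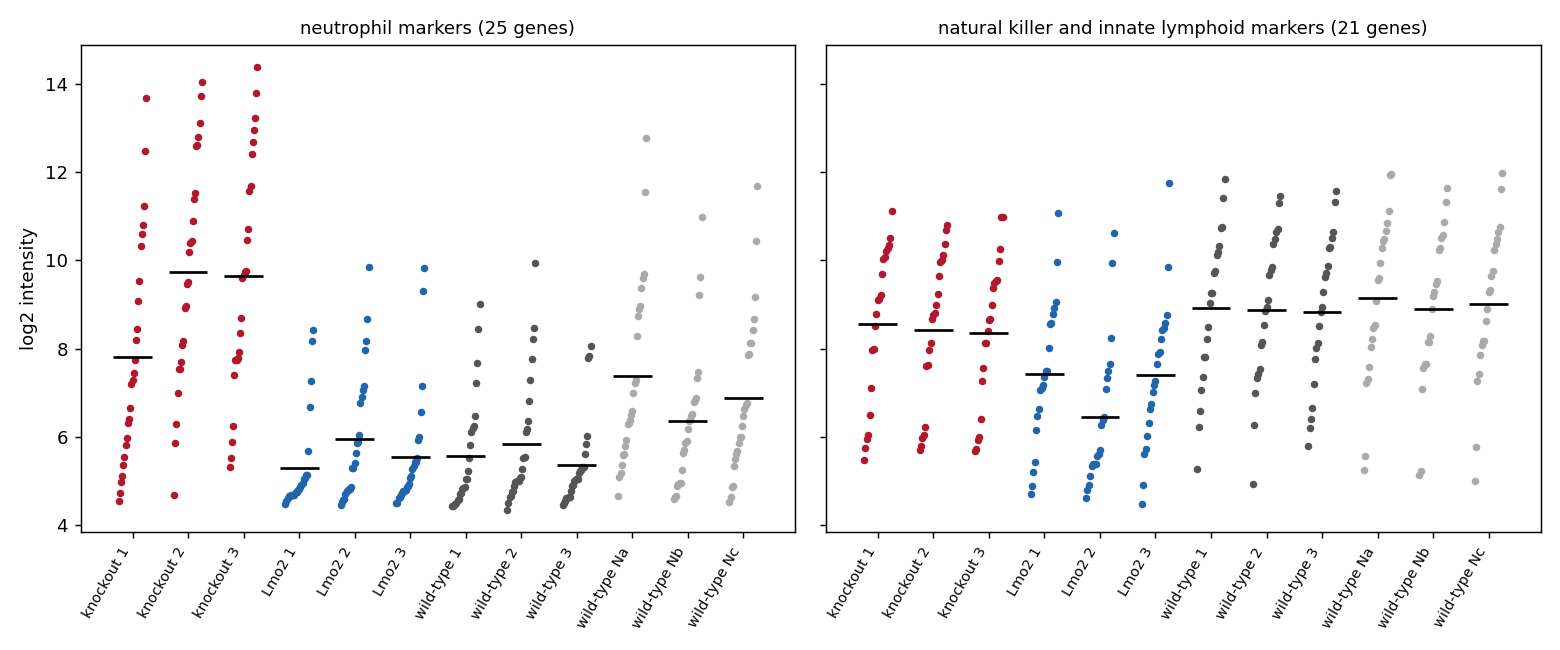
Log2 intensity of each measured neutrophil marker (left) and natural killer and innate lymphoid marker (right) on each array. Points are genes, bars are means, and wild-type Na, Nb and Nc are the arrays whose column name adds NHD13. Neutrophil markers are highest on the knockout arrays, with replicate 1 below the other 2, while natural killer markers differ mainly in being low on the Lmo2 arrays.

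Markers of other myeloid cells had few calls, at shares near those of all genes. Of 14 measured monocyte and macrophage markers (27 listed) 1 rose, the Fc receptor gene Fcgr3 (1.42 ± 0.40; adjusted p = 0.0427), whose call was lost without knockout replicate 2 or 3 or any 1 Lmo2 array, and none fell (limma; 4 higher and 3 lower at an unadjusted p under 0.05). Lower calls numbered 1 without Lmo2 replicate 1 and 3 without Lmo2 replicate 2, and the median was 0.015. The defining genes Csf1r (0.49 ± 0.38; 0.518) and Adgre1 (-0.23; 0.842) did not pass. Of 15 dendritic-cell markers 1 rose, H2-DMa, which loads peptides on class II molecules (1.94 ± 0.40; 0.00707), and of 12 B-lineage markers 1 rose, the surface lectin Cd72 (2.22 ± 0.37; 0.00198). The medians of these lists were 0.54 and 0.25, and the lowest dendritic-cell difference was 0.073, so all 15 measured markers lay above 0. Pax5, which defines B cells, did not pass the filter on dim probes. Leaving out Lmo2 replicate 3 gave 2 higher dendritic-cell markers, and leaving out Lmo2 replicate 2 gave 1 lower B-lineage marker.

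Natural killer and innate lymphoid markers also rose. Of 21 measured markers, 13 rose and none fell (limma; 17 higher and 0 lower at an unadjusted p under 0.05), with a median of 1.46, and 10 to 13 rose when any 1 transgenic array was left out. Klra1, a Ly49 receptor, read 8.78, 8.12 and 8.39 on knockout arrays and 6.47, 5.40 and 6.32 on Lmo2 arrays, against 7.65 to 8.53 (median 8.29) in wild-type (2.37 ± 0.31; adjusted p = 0.000327). Il18r1, the receptor for IL-18, read 10.22, 9.96 and 9.98 on knockout arrays and 8.03, 6.28 and 7.92 on Lmo2 arrays (2.64 ± 0.37; 0.000517), with 0.53 and no call on a second probe. For both genes the knockout values lay beside the wild-type values and Lmo2 replicate 2 was the lowest array. Fcer1g, a signalling adaptor of natural killer and myeloid cells, rose by 2.46 ± 0.28 (0.000125), Xcl1, a chemokine, by 2.41 ± 0.42 (0.0026), and Tbx21, the factor T-bet, by 0.93 ± 0.25 (0.0301).

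Over the 21 markers the mean level was 8.56, 8.44 and 8.37 on knockout arrays and 7.44, 6.44 and 7.40 on Lmo2 arrays, against 8.84 to 9.15 on wild-type arrays. Cytotoxic genes of the same list did not pass: Prf1, the pore-forming protein perforin, gave 0.05 ± 0.20 (adjusted p = 0.932) and Nkg7, a granule membrane protein, -0.21 ± 0.27 (0.723). Klra genes are a family of similar receptors, and their probes may read more than 1 member. Of 10 mature T-cell markers 4 rose, the receptors Ctla4 (2.68 ± 0.33), Icos (2.39 ± 0.58), Tnfrsf9 (at least 2.54-fold) and Cd52, a surface glycoprotein (1.56 ± 0.26), and none fell (limma; 1 lower at an unadjusted p under 0.05; 1 lower without Lmo2 replicate 2). Icos lost its call without knockout replicate 1 (1.94, limma, adjusted p = 0.0875), and with all arrays its second probe gave 2.31 with a call. Of 7 gamma-delta T-cell markers 2 rose, Id3 and 5830411N06Rik, and 1 fell, Sox13, a factor of gamma-delta cells (-1.49 ± 0.20; 0.000451). Without knockout replicate 1 or Lmo2 replicate 1 or 2, 5830411N06Rik lost its call, and without Lmo2 replicate 2 a second marker fell.

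Among the remaining lists, inflammasome and NF-kB genes had 4 of 15 higher and none lower (limma; 8 higher and 0 lower at an unadjusted p under 0.05; median 0.50). Casp1, the inflammasome protease, read 9.67, 10.10 and 9.67 on knockout arrays and 7.63, 5.75 and 6.84 on Lmo2 arrays, against 9.28 to 10.05 in wild-type (3.07 ± 0.38; adjusted p = 0.000216). Casp4 rose by 1.61 ± 0.30 (0.00411), with 0.87 and 0.29 and no call on its other probes, and Il1b, which is also a neutrophil marker, by 3.47 ± 0.63 (0.00312). Of 17 chemokines and chemokine receptors 6 rose and 2 fell, with Ccr8, a receptor of T cells, at 2.07 ± 0.31 (0.000945) and Cxcr4, the receptor for Cxcl12, at -0.81 ± 0.14 (0.00196). The other decrease, Cxcl10, lost its call without knockout replicate 1 or 2 or Lmo2 replicate 1, and the median was 0.48. Among 18 immediate-early and heat-shock genes 2 rose, the zinc-finger factors Egr3 (2.55 ± 0.42; 0.00172, with 0.25 and no call on a second probe) and Egr2 (1.87 ± 0.37; 0.00542), which T-cell receptor signals induce, and 1 fell, the chaperone gene Dnajb1, whose call was lost without any 1 knockout array or Lmo2 replicate 2. The median of that list was 0.33.

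No interferon-stimulated gene of 18 passed (limma; 0 higher and 1 lower at an unadjusted p under 0.05; 3 higher without Lmo2 replicate 1; 1 lower without knockout replicate 1 or Lmo2 replicate 2 or 3), and their median was 0.0016. Of 9 double-positive thymocyte markers 3 rose and 1 fell: beside Rag1 and Cd8b1, Ets2, an ETS factor, rose by 1.61 ± 0.18 (adjusted p = 0.00011) and Aqp11, a water channel, changed by -1.26 ± 0.19 (0.000998), with -1.17 and no call on a second probe. Of 6 stromal and epithelial markers 3 fell and 1 rose (median -0.86). The decreases were Fbln1, the growth factor receptor gene Pdgfrb (-2.43 ± 0.58; 0.0163), whose call was lost without knockout replicate 1 or 3 or Lmo2 replicate 3, and Pecam1, an adhesion molecule (-1.12 ± 0.22; 0.005), with -0.52 and no call on a second probe. The increase was Gja1, a gap-junction protein (2.71 ± 0.30; 8.51e-05). None of the 4 sex-linked genes passed (limma; 0 at an unadjusted p under 0.05 in either direction). Some genes stand on more than 1 list.

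**Figure D4:**
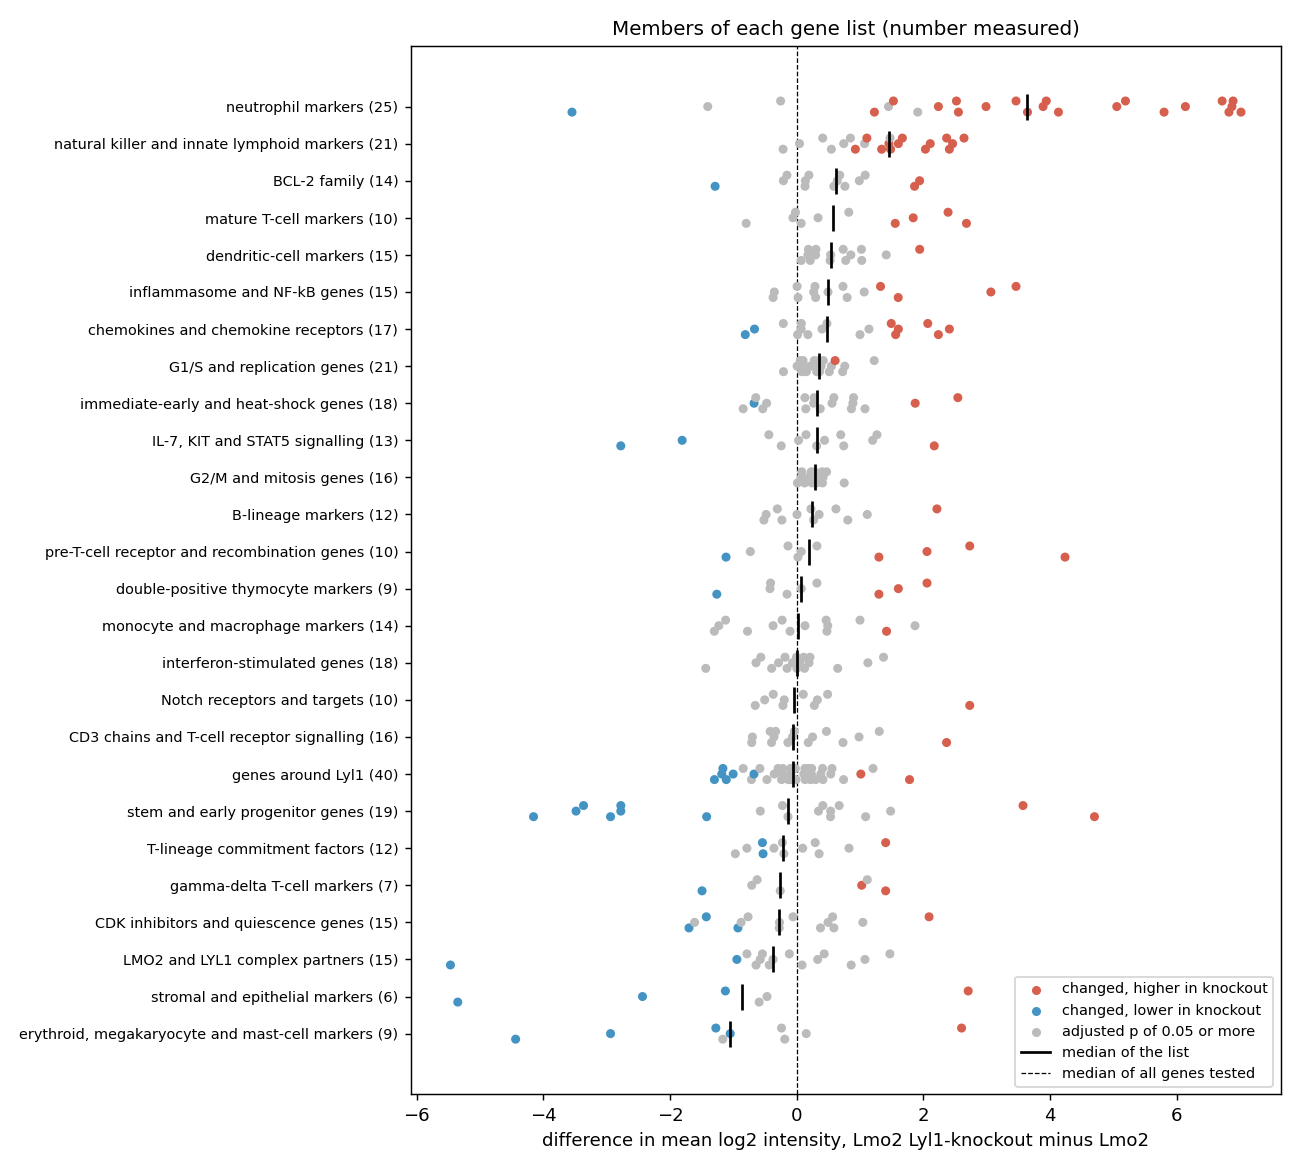
Difference in mean log2 intensity, Lmo2 Lyl1-knockout minus Lmo2, for each measured member of 26 gene lists (x axis; lists down the y axis, with the number measured). Red points rose, blue points fell and grey points did not pass; bars are medians of the lists and the dashed line is the median of all genes. The medians run from -1.05 for erythroid, megakaryocyte and mast-cell markers to 3.65 for neutrophil markers, and the stem and progenitor list holds large differences in both directions.

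Genes next to Lyl1 on chromosome 8 were read for their position. Of the 20 measured genes on each side, 2 rose and 6 fell, with a median of -0.05. Farsa, a subunit of phenylalanyl-tRNA synthetase and the fourth measured gene from Lyl1 on one side, read 8.78, 8.995 and 8.81 on knockout arrays and 7.41, 6.87 and 6.95 on Lmo2 arrays, against 6.24 to 7.20 (median 6.999) in wild-type (1.78 ± 0.25; adjusted p = 0.000519). It was higher than in wild-type too (2.04; 0.00068). Gadd45gip1, a mitochondrial ribosome protein, rose by 1.01 (0.0196), and for Farsa the knockout arrays stood apart from both other groups. Nfix, a nuclear factor I gene and the nearest measured neighbour on that side, differed by -1.30 ± 0.18 (0.000491). Its other probes gave -1.36 with a call, and -0.94 and -0.40 without one. Syce2 (-1.18 ± 0.22, 0.00334) and Wdr83os (-1.11 ± 0.23, 0.00836) fell as well. Gadd45gip1 lost its call without knockout replicate 1 or 3 or Lmo2 replicate 1 or 3 and without background correction (0.30), and with median scaling 2 neighbours fell.

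Decreases were more frequent on chromosome 15 than on any other chromosome tested, a pattern noticed after the values were seen. There 49 of 427 genes (11.5%) fell and 3 (0.703%) rose, against 3.07% to 7.41% lower and at least 3.1% higher on each of the other 19 chromosomes with over 5 tested genes. The median difference was -0.27 on chromosome 15, where 77.0% of genes lay below 0, and between -0.029 and 0.062 on the others. Of the 49, 23 differed by under 1 on the log2 scale, as did 220 of all 583 genes that fell, and the medians were -1.08 on chromosome 15 and -1.19 over all genes that fell. Fbln1, Nfe2 and Angpt1 lie on this chromosome, as do Pheta2 (-3.57 ± 0.30; adjusted p = 8.97e-06) and Deptor, an inhibitor of mTOR (-1.996 ± 0.35; 0.0027), which were chosen after their values were seen. The 3 genes that rose were Csf2rb, Nrbp2 and Grasp.

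Lmo2 replicates 2 and 3 stood apart on this chromosome. Over the 221 brighter genes of chromosome 15, the median difference from the wild-type mean was 0.021, 0.0031 and -0.022 on the 3 knockout arrays and 0.112, 0.430 and 0.430 on Lmo2 replicates 1 to 3, while each wild-type array lay between -0.024 and 0.045. The other chromosomes lay between -0.12 and 0.115 on Lmo2 replicate 1, a range that holds its chromosome 15 value, between -0.0836 and 0.0947 on replicate 2 and between -0.0895 and 0.130 on replicate 3. When the chromosome was divided into 6 stretches by gene order, all 6 were raised on Lmo2 replicates 2 and 3, by 0.30 to 0.65, and on Lmo2 replicate 1 they ran from -0.103 to 0.26. The median difference was -0.41 without Lmo2 replicate 1, and 29 to 69 genes fell when any 1 transgenic array was left out, the 29 without knockout replicate 3. DNA copy number was not measured. On Lmo2 replicates 1 to 3, Nfe2 read 12.32, 11.84 and 12.85, Fbln1 10.18, 10.94 and 10.33, and Angpt1 9.84, 10.16 and 8.23. Pheta2 read 9.98, 10.33 and 10.77, and Deptor 8.42, 7.98 and 9.56. Among these genes, replicate 1 was the lowest for Fbln1 and Pheta2 and not for Nfe2, Angpt1 or Deptor. They were picked from all genes that fell on this chromosome and do not show how the replicates ranked in the rest. Whether the level of the whole chromosome contributed to these decreases was not tested. Without the genes of chromosome 15, 1032 genes changed, 498 higher and 534 lower.

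**Figure D5:**
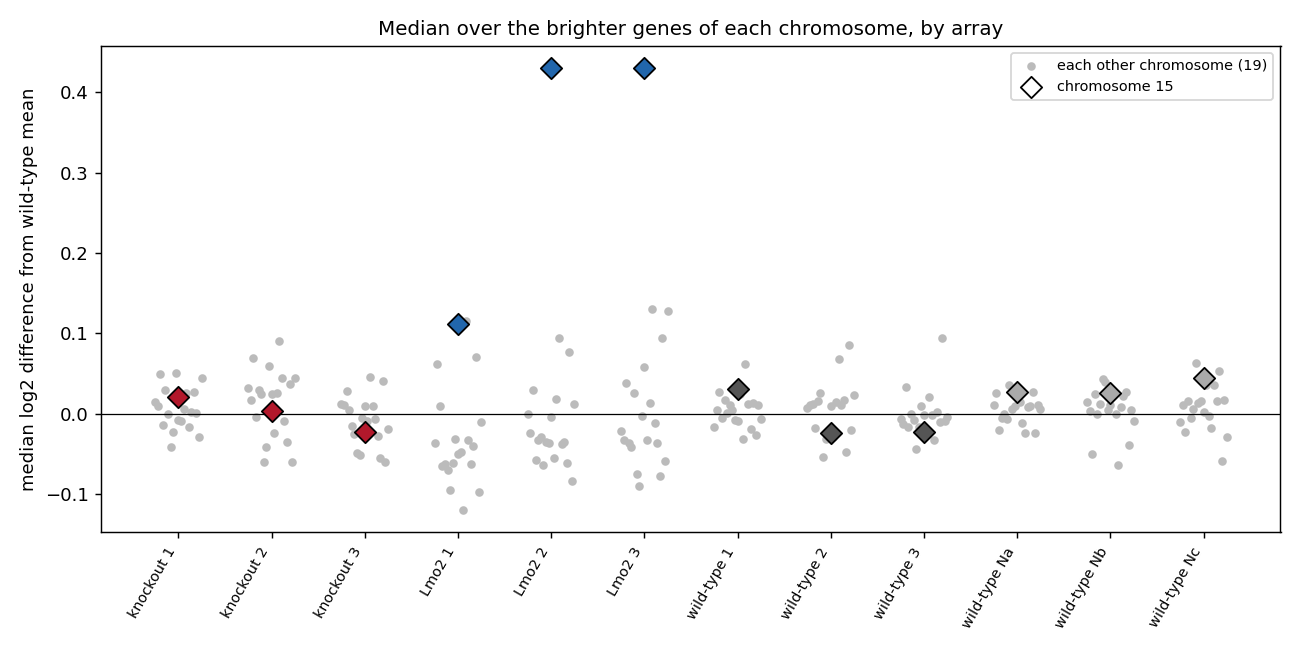
Median log2 difference from the mean of the wild-type arrays, over the brighter genes of each chromosome (those with a mean above the median gene), for each array. Diamonds are chromosome 15, coloured by group, and grey points are the 19 other chromosomes. On Lmo2 replicates 2 and 3 chromosome 15 lies at 0.430, apart from the others, and on the 3 knockout arrays it lies among them.

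Set side by side with wild-type arrays, the genes named most above had different positions. Hhex differed by 0.10 between knockout and wild-type arrays (adjusted p = 0.86) and by 3.46 between Lmo2 and wild-type arrays (7.8e-07), and Ptcra by 0.07 (0.94) and -2.67 (0.00023). For Cd93 the values were -1.08 (0.059) and 3.07 (4.1e-06), and for Rag1 -0.22 (0.56) and -1.52 (3.1e-05). A p that misses the threshold does not show that knockout and wild-type cells had the same level. Fbln1 gave -1.10 (0.013) and 4.25 (1.7e-07). The first of these calls was lost without background correction (-0.33; 0.325), with an offset of 50 (-0.67; 0.0736), with the mean of its probes (-0.51; 0.344), with median scaling (-1.02; 0.102), against wild-type replicates 1 to 3 alone (-0.96; 0.143) and without any 1 knockout array (0.0542 to 0.105). Cd93 passed between knockout and wild-type arrays in 6 alternatives, among them leaving out Lmo2 replicate 1 (0.032) or 2 (0.0305). Of the neutrophil genes, Lcn2 stood at 5.24 (0.0094) for knockout over wild-type and -1.77 (0.22) for Lmo2 over wild-type, and Ngp at 5.38 (0.0042) and -1.495 (0.24). Ltf (5.02, 0.0081) and Camp (4.94, 0.0071) also passed for knockout over wild-type, while S100a8 (3.67, 0.12) and S100a9 (4.45, 0.071) did not. For Lcn2 the call of knockout over wild-type was lost without knockout replicate 2 (4.995; 0.0784) or 3 (4.83; 0.0809). Against the NHD13-named arrays alone, Lmo2 over wild-type passed for Lcn2 (-3.08; 0.0168) and Ngp (-2.52; 0.0387).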

How the data were processed

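Arrays were grouped by sample titles. The deposited table gives, per the file headers, 1 linear intensity and 1 detection p-value per probe and array, and the authors' value table holds log2 values. The submitters' processing notes name BeadStudio and limma, whose settings are not given in the sources used here. Each column of the deposited log2 table matched 1 array (r of at least 0.9999, medians of 4.88 to 4.89); its values are thus on the same scale and not centred by gene, and its background correction, normalization and offset are not stated. Of the wild-type columns, 3 add NHD13 to the name and were used as wild-type arrays.

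Intensities were corrected with normexp from the detection p-values, quantile-normalized and put on log2 with an offset of 16 (neqc, limma 3.58.1, R 4.3.3). A probe was kept with a detection p under 0.05 on at least 3 arrays. Of 45281 probes, 34885 carried 1 symbol in the platform annotation, 18 several and 10378 none, and 34807 matched a RefSeq gene (GRCm38.p6), used for names, gene order and promoters. The 20651 kept probes included 17126 with 1 symbol. The brightest probe stood for each of 10526 genes. Group means were fitted to all 12 arrays with limma (lmFit, eBayes, 9 residual degrees of freedom) and tested two-sided with Benjamini-Hochberg adjustment over all genes. Errors are standard errors of differences. The number of arrays limits the precision.

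Named genes are Lyl1, Lmo2, the 12 largest changes in each direction without overlap of groups, up to 4 called members of each list and direction, and a set of key genes. The 12 largest changes leave out genes with RIKEN, LOC, Gm, EG or clone symbols. Further list members, array checks and chromosome 15 genes were added after their values were seen. Members and lists were chosen with earlier results of these data known. The fit was tested on simulated data. Replicate numbers are shared between the transgenic groups, and their deviations correlated at 0.13, 0.076 and 0.025, so the numbers were not taken to pair samples. Alternatives covered background, normalization, filter, offset, probe choice, samples fitted, replicate block, array weights, prior and leaving out arrays.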

Additional observations from a re-analysis of the deposited data

Results flagged for a closer look

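Among 53 genes (Lyl1, Lmo2, the largest changes and the key genes), a single wild-type array stood apart from the other 5 for 2 genes. Tbx4 read 5.03 on wild-type replicate 3 and 4.49 to 4.57 on the others, all below background. Cbfa2t3 read 10.4 on an array whose column name adds NHD13 and 10.02 to 10.14 on the others. Chance sets apart about 1 in 20 such groups.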

How the results depend on the processing

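Of 88 named genes that changed between knockout and Lmo2 arrays, 57 kept their call in all 17 alternatives run and none turned direction. Of 20 named genes without a call, 3 gained one in at least 1 alternative.

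Without background correction 139 genes rose and 164 fell at least 2-fold. With median scaling 696 genes changed, 275 of them lower, 60.5% of changed genes were higher against 46.2% with quantile normalization, the median of all genes moved to 0.0978, and 18 genes of chromosome 15 fell. With every probe tested on its own 548 probes fell at least 2-fold. Fitted on the 6 transgenic arrays alone, 615 genes changed, 273 higher and 342 lower. With the replicate number as a block on those arrays 404 genes changed, 182 higher and 222 lower, of which 182 and 221 at least 2-fold, 16 genes of chromosome 15 fell, and Kit (adjusted p = 0.0504) and Ptcra (0.053) lost their calls.

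Leaving out 1 transgenic array gave 749 to 1257 changed genes, 344 to 557 higher, 397 to 700 lower, and 280 to 387 higher and 314 to 458 lower at least 2-fold. Among genes without a call, Il2ra gave 0.059 with the mean of its probes and Myc -0.066 with array weights. Leaving out 1 transgenic array gave -0.23 to 0.32 for Myc, -0.66 to 0.31 for Cdkn1b, -0.11 to 1.12 for Bcl2 and -0.026 to 0.18 for Bcl11b. Between knockout and wild-type arrays Ptcra gave -0.093 with array weights, -0.20 against the NHD13-named arrays alone and -0.099 to 0.24 without 1 array. Hhex gave -0.10 against wild-type replicates 1 to 3 alone and -0.12 to 0.23 without 1 array, and Nfe2 -0.15 to 0.47. The cause was not tested. A slide block was not run, as the headers give no slide. Dim probes limit folds to bounds: 85 genes that rose were above background on no Lmo2 array and 63 that fell on no knockout array.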
